A study of Mus musculus with 3 samples.

Results

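The lysosome is the acidic compartment in which cells digest proteins, lipids, glycans and nucleic acids, and 39 of its genes were followed here among the 31053 genes listed for each library. They were chosen by symbol from a fixed list and fall into 13 acid hydrolases, 3 lumenal cofactors (Psap, Grn and Npc2), 9 membrane proteins, the transcriptional regulator Tfeb and 13 genes of the V-ATPase proton pump. All 39 symbols were found in the files. The question was how much of each transcript microglia in different states and the macrophages of the brain's borders carried.

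Hydrolases work only in acid. The V-ATPase supplies that acid: its membrane-bound V0 sector forms the proton path, and its cytosolic V1 sector hydrolyses ATP to drive it. Membrane proteins such as Lamp1 and Lamp2 line the compartment, Npc1 and Npc2 pass cholesterol out of it, and Tfeb switches on many lysosomal genes. Microglia take up myelin, synaptic material and dead cells, and the enzymes of this list break that cargo down. Inherited loss of several members, among them Gaa, Gla, Hexa, Npc1, Ppt1 and Tpp1, causes lysosomal storage disease.

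The data are 3 droplet single-cell RNA libraries, called runs 1, 2 and 3, of tdTomato-positive cells from both hippocampi of mice. All animals carried Cx3cr1CreERT2/+, Rosa26tdTomato/+ and NestinTK-eGFP/+ alleles and received tamoxifen at 100 mg/kg for 4 days, so every cell compared here shares that genotype and treatment. The Cre is driven from Cx3cr1, a gene of microglia and related myeloid cells. The study used 12 animals, 6 male and 6 female, which the labels do not assign to runs, and an age is not given in the labels used here. P-values below therefore measure only the spread between these 3 runs, which may be technical. In the 6 comparisons with all reference microglia-like cells, set out below, all genes shared 1 estimate of that spread. Those p-values do not measure how each gene itself varied between runs.

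After filtering, 19791 of 20376 barcodes were kept, 6993, 6720 and 6078 in runs 1, 2 and 3, with median depths of 4425, 3438 and 3696 UMIs (unique molecular identifiers, each a counted RNA molecule). Pairs of runs shared 7 or 8 barcodes. Cells were assigned to populations by the number of marker genes detected, with no member of the lysosomal list among the markers. Reference microglia-like cells numbered 18902, and their 7 microglial markers, P2ry12, Tmem119, Siglech, Gpr34, Fcrls, Sall1 and Olfml3, summed to 14407, 17835 and 14081 CPM (UMIs per 1000000 UMIs of the summed cells, the level used throughout). The smaller populations were 100 lipid-type disease-associated-like cells (46, 32 and 22 per run), 100 Ccl3/Ccl4-high cells, 128 interferon-responsive-like cells, 62 cycling-like cells, 127 MHC class II-high cells and 110 border macrophage-like cells. Lipid-type cells carried at least 3 of 6 listed genes of lipid-handling and phagocytic microglia (Spp1, Lpl, Itgax, Cst7, Lgals3 and Igf1), which summed to between 1682 and 1847 CPM against 38.6 to 48.5 in reference cells. Border macrophage-like cells carried at least 3 of Pf4, Mrc1, Lyve1, F13a1, Cd163, Cbr2 and Ms4a7. The rule also asked for more UMIs of these than of the microglial markers. The 7 genes summed to 8203 to 10019 CPM against 5.5 to 30.2 in reference cells. The microglial markers still summed to 2790 to 3672 CPM in the border macrophage-like cells, and the part of this in the results was not tested.

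Promoter sequences were read first, because Tfeb and its relatives are known to bind a motif built around the letters CACGTG. RefSeq promoter windows on GRCm38.p6, from 250 bases before to 50 bases after each start site, were at hand for 32 of the 39 members. The letters CACGTG, which read the same on both strands, stood in the window of 10 of these 32 members (31.2%), against 8.09% of 27025 genes with a window of the same length. The longer letters GTCACGTG, searched on both strands and always overlapping CACGTG, stood in 8 of the 32 (25%) against 2.55% of genes. The 250 bases before the start of Gla and of Lamp1 are shown because they hold more than 1 such match and because both genes were among the members called higher in lipid-type cells; capitals mark CACGTG.
Gla, chrX:134601006-134601255, minus strand: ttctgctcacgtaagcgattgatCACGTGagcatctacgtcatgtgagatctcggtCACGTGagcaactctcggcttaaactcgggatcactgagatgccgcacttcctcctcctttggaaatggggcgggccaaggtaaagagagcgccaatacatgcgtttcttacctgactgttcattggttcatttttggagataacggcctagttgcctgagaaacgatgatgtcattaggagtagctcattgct
Lamp1, chr8:13158911-13159160, plus strand: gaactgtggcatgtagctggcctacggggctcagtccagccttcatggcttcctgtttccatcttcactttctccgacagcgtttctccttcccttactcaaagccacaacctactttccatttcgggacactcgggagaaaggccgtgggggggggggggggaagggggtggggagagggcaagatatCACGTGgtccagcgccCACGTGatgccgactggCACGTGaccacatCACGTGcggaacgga

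Lamp1 held 4 matches, which end 55, 39, 22 and 9 bases before its start site, and the matches of Gla end 221 and 188 bases before its own. For the other 8 members with a match, 26 bases around each match are given on the strand of the gene, so that the letters next to CACGTG can be compared.
Gaa, chr11:119267813-119267838, plus strand: tctgtgcgatCACGTGtttgactctg
Glb1, chr9:114401020-114401045, plus strand: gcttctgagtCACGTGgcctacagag
Lgmn, chr12:102439126-102439151, minus strand: gaatgtctgtCACGTGgtccatttta
Naglu, chr11:101070011-101070036, plus strand: accttcaggtCACGTGgcccgaggtc
Mcoln1, chr8:3500438-3500463, plus strand: tcgcgcttgtCACGTGttcagttcag
Mcoln1, chr8:3500464-3500489, plus strand: gcgccccgctCACGTGaccgcggcgc
Atp6v0b, chr4:117887350-117887375, minus strand: gcgcgggggtCACGTGgggtcggcgc
Atp6v0b, chr4:117887332-117887357, minus strand: gtcggcgcatCACGTGcgccggtcag
Atp6v0d1, chr8:105566052-105566077, minus strand: ctactgcggtCACGTGagacgcggtg
Atp6v1a, chr16:44139375-44139400, minus strand: ttttttaaatCACGTGataggcttaa

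Of the 10 members with a match, 4 were called higher, 1 lower and 5 in neither direction in lipid-type cells by the test across all genes used throughout, which called 5.53% of 11230 genes higher and 6.38% lower. Of the other 29 members 27 were tested, 12 higher and 1 lower. A match is a run of letters in this window and says nothing about binding.

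In reference microglia-like cells the 39 transcripts together made up 1.71, 2.21 and 1.69% of all UMIs in runs 1, 2 and 3, a mean of 1.87% ± 0.294 (SD, n = 3). The hydrolases took 0.811% ± 0.161, the membrane proteins 0.482% ± 0.0464, the 3 cofactors 0.347% ± 0.0750 and the V-ATPase genes 0.226% ± 0.0131. Legumain (Lgmn), an asparaginyl endopeptidase that also activates other lysosomal proteases, alone gave 0.478% of UMIs, and the other 12 hydrolases gave 0.334% in sum. Run 2 was the high library. Of the 35 members with at least 10 CPM, 24 (68.6%) were highest in run 2, against 32.4% of 8158 genes at that level, and the median member was 1.13-fold above the mean of runs 1 and 3 there. Hexa, an enzyme of ganglioside breakdown, stood at 781, 1183 and 642 CPM, while Lamp2 stood at 435, 461 and 447. For this reason the run entered every fit as a block, and levels are given per run.

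Free RNA or a second cell in the droplet can bring microglial transcripts into another cell's count. In the 13 cells with T or NK markers, 2, 3 and 8 in runs 1, 2 and 3, the members made up 0.678, 1.25 and 0.375% of UMIs. Lgmn stood at 1695, 2826 and 491 CPM there, and microglial markers at 5423, 7066 and 1301. Cd68 stood at 67.8, 177 and 24.5 CPM. These levels rest on 13 cells, and what part of a member's level in any population comes from other cells was not tested.

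**Figure D1:**
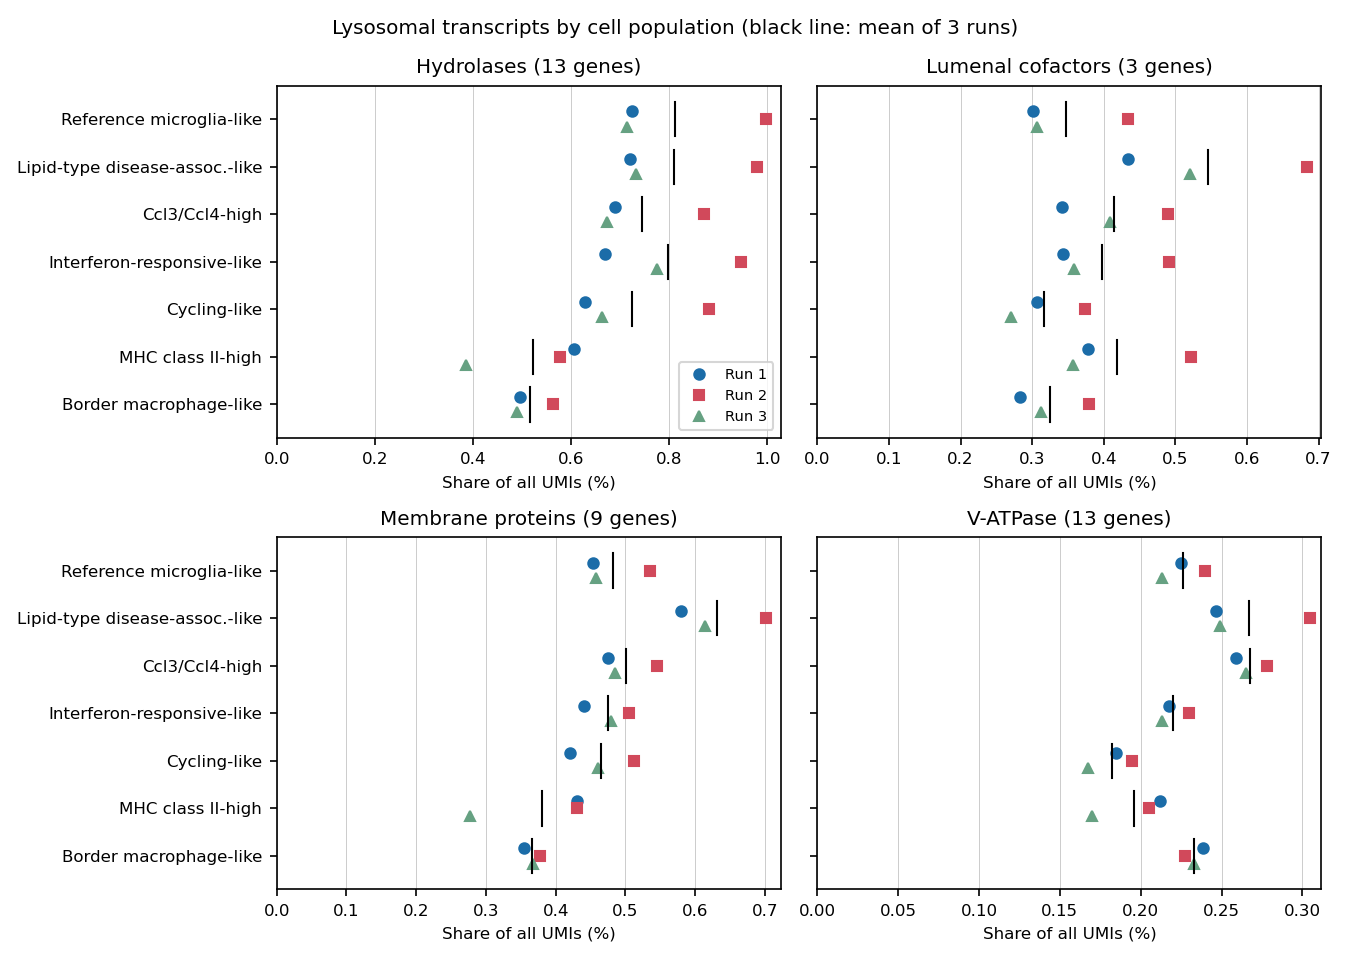
Share of all UMIs (%, x axis) taken by the hydrolases, cofactors, membrane proteins and V-ATPase genes in reference microglia-like cells and the 6 smaller populations compared with them (rows; T or NK cells are not plotted), with a symbol per run and a black line at the mean of 3 runs. Among these rows the mean shares of cofactors and membrane proteins are highest in lipid-type cells (0.546% and 0.632%), and those of hydrolases are lowest in border macrophage-like (0.516%) and MHC class II-high cells. The low hydrolase share of border macrophage-like cells rests largely on Lgmn. Without it (not plotted) the other 12 took 0.315% there, 0.270% in MHC class II-high, 0.268% in cycling-like and 0.334% in reference cells.

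Lipid-type microglia carried more of 16 members than reference microglia. The 3 cofactors, the membrane glycoproteins Cd68 and Lamp1, 7 hydrolases and 4 genes of the V1 sector of the pump were higher, whereas Lgmn and Laptm5 were lower and 19 members were not called. Of the 39 members 37 passed the filter on low counts, and 16 were higher and 2 lower (edgeR quasi-likelihood test on summed counts, adjusted p under 0.05). Over all genes tested the same rule called 5.53% higher and 6.38% lower, 11.9% in either direction. The median member had a log2 change of 0.37, against -0.11 over all 11230 genes. The list holds 7 higher and 1 lower of 13 hydrolases, 3 of 3 cofactors higher, 2 higher and 1 lower of 8 membrane proteins tested, and 4 of 12 V-ATPase genes higher with none lower. The share of UMIs taken by all members was 1.71, 2.21 and 1.69% in reference cells and 1.98, 2.67 and 2.12% in lipid-type cells of the same runs, a description with no test of its own.

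Markers of other states moved with the lipid-type cells. Their microglial markers summed to 8318, 8733 and 6486 CPM in runs 1, 2 and 3, below the 14407, 17835 and 14081 of reference cells in every run. Ccl3 and Ccl4 summed to 218, 986 and 768 against 13.9, 21.8 and 56.4, and border macrophage markers stood at 361 against 30.2 in run 1, with all 7 detected. The median share of mitochondrial UMIs was 4.08, 3.37 and 4.13% against 2.58, 2.09 and 2.57%. The part of these in the result was not tested.

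Cd68, a heavily glycosylated lysosomal membrane protein used as a marker of phagocytes (ENSMUSG00000018774), stood at 734, 1012 and 662 CPM in reference cells of runs 1, 2 and 3 and at 1469, 2289 and 1691 in lipid-type cells. Every lipid-type value lay above every reference value, and the fitted log2 difference was 1.17 ± 0.10 (SE; 2.26-fold; adjusted p = 3.19e-29). Lamp1, the main structural glycoprotein of the lysosomal membrane, stood at 913, 1140 and 977 in reference and at 1544, 2000 and 1963 in lipid-type cells, again without overlap (0.86 ± 0.10, 1.82-fold, adjusted p = 5.64e-16). Its relative Lamp2 stood at 448 ± 13 (mean ± SD, n = 3) in reference and 506 ± 25.8 in lipid-type cells, with a log2 difference of 0.20 that was not called.

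Each of the 3 cofactors was higher. Npc2, the soluble protein that hands cholesterol to Npc1, stood at 642, 733 and 638 CPM in reference cells and at 1041, 1094 and 1296 in lipid-type cells, without overlap (0.77 ± 0.10, adjusted p = 2.18e-11). Npc1 itself had a log2 difference of 0.14 and was not called. Grn, which encodes progranulin, stood at 971, 1456 and 882 against 1421, 2363 and 1753, so the groups overlapped, but it was higher within each run (0.74 ± 0.10, 1.67-fold, adjusted p = 7.28e-12). Psap, the precursor of the saposins that help glycosidases reach sphingolipids, stood at 1399, 2148 and 1545 against 1870, 3377 and 2157 and was also higher within each run (0.53 ± 0.10, adjusted p = 2.07e-06). The overlap for Grn and Psap came from run 2, which was high in both populations. Both lost their calls when the run was not a block (adjusted p = 0.0887 for Grn and 0.233 for Psap).

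Among hydrolases, Gaa, the acid glucosidase that degrades glycogen, stood at 48.5, 74.8 and 42.4 CPM in reference cells and at 125, 193 and 85.3 in lipid-type cells (1.32 ± 0.20, 2.50-fold, adjusted p = 2.30e-09). Gusb, the beta-glucuronidase of glycosaminoglycan breakdown, stood at 224, 320 and 263 against 329, 623 and 659 (0.93 ± 0.12, 1.91-fold, adjusted p = 5.32e-12). Neither gene's groups overlapped. Gla, the alpha-galactosidase that removes the terminal sugar of globosides, was rare: 258 UMIs in all reference cells and 22 in lipid-type cells. Its level was 3.20, 3.15 and 3.75 CPM against 23.9, 51.0 and 31.0, the largest fitted difference among the members tested here (3.34 ± 0.54, 10.1-fold, adjusted p = 4.91e-08). A Gla UMI was seen in 17 of 100 lipid-type and 244 of 18902 reference cells (1.29%). Lipid-type cells were deeper, with median counts of 6703, 5496 and 5493 UMIs against 4395, 3426 and 3681, and at 1000 UMIs per cell only 3 of the 100 still showed Gla against 62 of the reference cells, so no change is read from the thinned share.

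Lgmn went the other way. It stood at 4225, 5983 and 4122 CPM in reference and at 3605, 4992 and 3197 in lipid-type cells, lower within each run although the groups overlapped (-0.28 ± 0.09, adjusted p = 0.0338). Laptm5, a lysosomal membrane protein of blood-lineage cells, stood at 2016, 2353 and 2081 against 1817, 1740 and 1567 and did not overlap (-0.31 ± 0.10, adjusted p = 0.0182). Because Lgmn is so abundant, the summed hydrolase share was nearly the same in both populations (0.811% and 0.810%). Without Lgmn, the other 12 hydrolases took 0.302, 0.398 and 0.301% of UMIs in reference cells and 0.360, 0.479 and 0.413% in lipid-type cells.

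In the proton pump, Atp6v1c1, a V1 subunit that regulates assembly of the 2 sectors, stood at 88.2, 81.2 and 88.3 CPM in reference cells and at 159, 164 and 186 in lipid-type cells, without overlap (0.97 ± 0.18, 1.96-fold, adjusted p = 1.64e-06). Atp6v1a, the catalytic V1 subunit, stood at 43.0, 29.9 and 42.5 against 77.0, 39.7 and 109, which overlapped (0.92 ± 0.26, adjusted p = 0.00540). The 8 other members called higher, Grn and Psap included, had log2 differences from 0.31 for Hexa to 0.74 for Grn, and among them were Atp6v1b2, Atp6v1g1, Lipa, Neu1 and Tpp1. Of the V0 genes, Atp6v0b stood at 969 ± 60.4 in reference and 950 ± 171 in lipid-type cells and was not called.

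Over the alternatives run for lipid-type cells, 7 of the 18 calls were kept in every setting: Gusb, Gaa, Gla, Npc2, Lamp1, Cd68 and Atp6v1c1. Leaving out single runs ended other calls. Without run 1 the adjusted p was 0.305 for Lipa, 0.153 for Tpp1, 0.359 for Neu1, 0.141 for Atp6v1a and 0.118 for Atp6v1b2. Without run 2 it was 0.177 for Lgmn, 0.102 for Neu1, 0.297 for Laptm5, 0.0629 for Atp6v1b2 and 0.430 for Atp6v1g1. Without run 3 it was 0.584 for Hexa, 0.370 for Lgmn, 0.0687 for Tpp1, 0.242 for Laptm5, 0.105 for Atp6v1a and 0.162 for Atp6v1g1. DESeq2 called 12 members higher and none lower, without Lgmn, Laptm5, Hexa, Neu1, Atp6v1a and Atp6v1g1. Both lower calls, Lgmn and Laptm5, therefore depend on which runs and which test are used.

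The other lysosomal genes give the setting. Of 66 further lysosomal genes, 62 were tested in lipid-type cells, 16 higher and 6 lower, against 5.53% and 6.38% of all 11230 genes. Cathepsins, the proteases of the lumen, were 6 higher and 1 lower of 9 tested. Cd63, a tetraspanin of late endosomes and lysosomes, stood at 3206 ± 795 CPM against 402 ± 54.7 in reference cells (log2 difference 2.97 ± 0.10). Ctsb stood at 5514 ± 1880 against 1428 ± 400 (1.93 ± 0.10), and Ctsz was higher by 1.49 ± 0.09. The pump subunit Atp6v0a2, an isoform of the V0 a subunit, was lower (40.6 ± 15.5 against 123 ± 9.05, -1.44 ± 0.24), as were Pla2g15, Arsb and the cathepsin Ctsf.

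**Figure D2:**
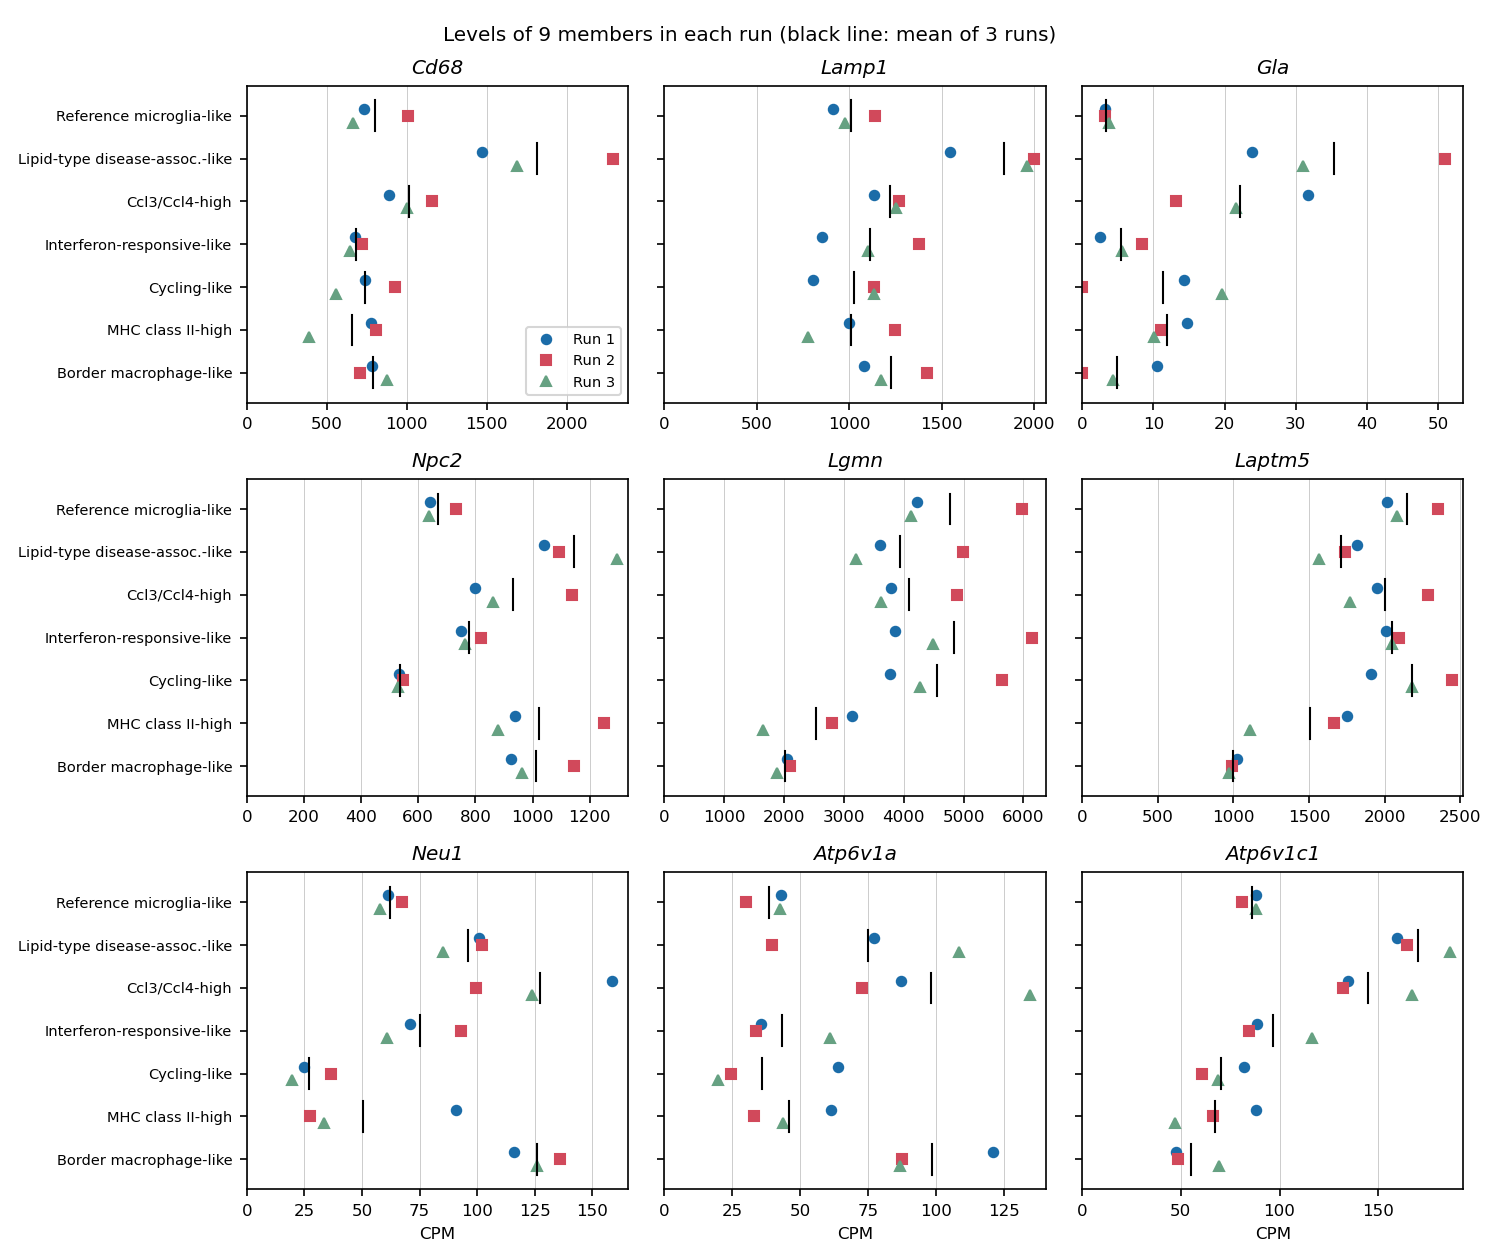
CPM (x axis, own scale per gene) of 9 members in reference microglia-like cells and the 6 smaller populations (rows), with a symbol per run and a black line at the mean of 3 runs; T or NK cells are not plotted. Among these rows Cd68 and Lamp1 lie highest in lipid-type cells in every run, and the means of Lgmn and Laptm5 are lowest in border macrophage-like cells (2010 and 996), although in run 3 Lgmn is lower in MHC class II-high cells (1641 against 1878).

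Microglia-like cells were next ordered by how many of the 6 lipid-type markers they showed. Cells with 0, 1 and 2 markers belong to the reference population and those with 3 or more to the lipid-type cells, so the last step repeats the comparison above, and deeper cells show more markers: the median depth in run 1 went from 4332 UMIs with 0 markers to 6261 with 2. The number of cells with 2 markers was 83, 74 and 43 in runs 1, 2 and 3. Mean levels of Cd68 were 783, 892, 1297 and 1817 CPM at 0, 1, 2 and 3 or more markers, and those of Grn were 1082, 1222, 1489 and 1846. Within each run both were higher at every step. Gla averaged 2.92, 5.44, 13.6 and 35.3 CPM. Lgmn averaged 4788, 4709, 4656 and 3931. These levels are a description with no test, and the part of depth in them was not tested.

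**Figure D3:**
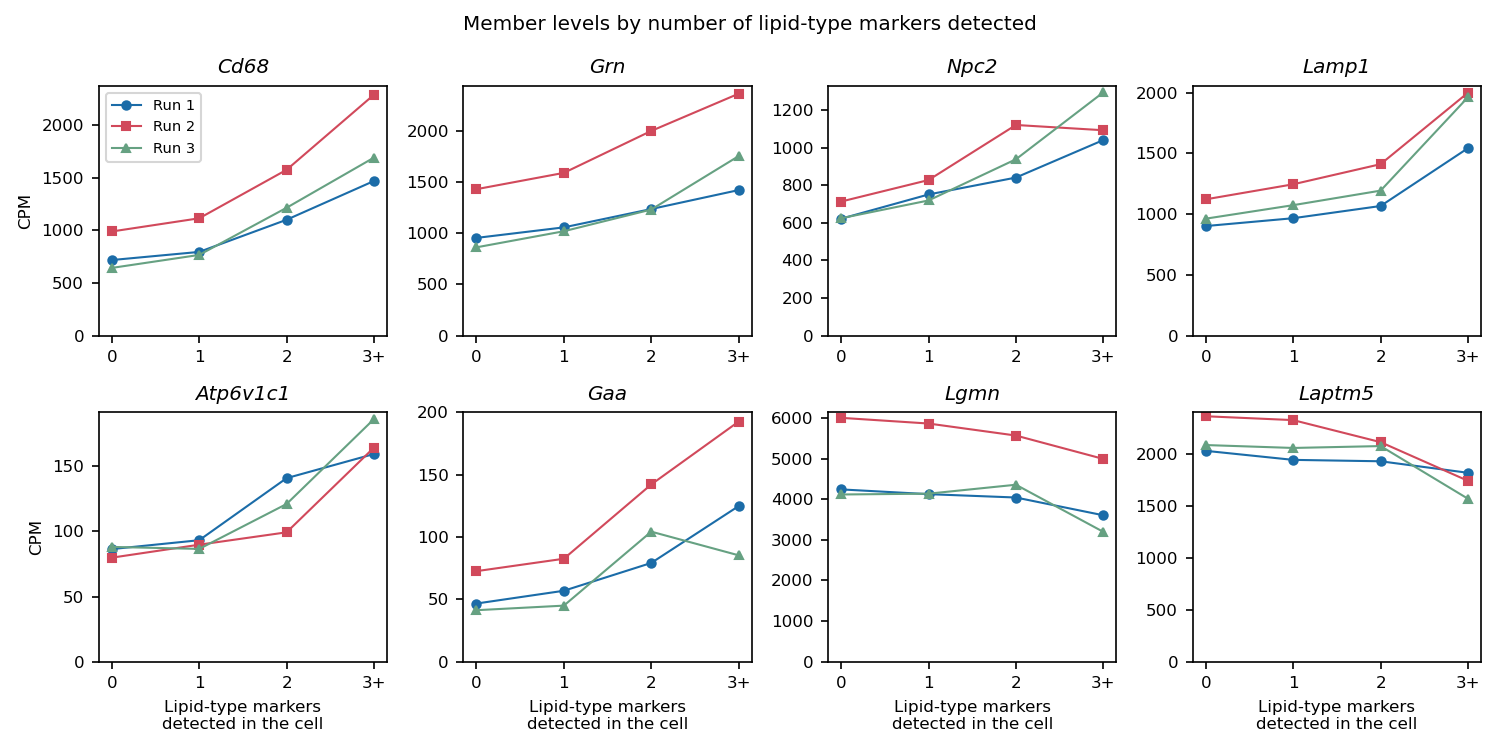
CPM (y axis, from 0) of 8 members in microglia-like cells with 0, 1, 2 and 3 or more lipid-type markers detected (x axis), with a line per run. Cd68, Grn and Lamp1 climb in each run, with Cd68 at means of 783 to 1817 CPM, and Lgmn and Laptm5 are lowest at the last step in each run.

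Ccl3/Ccl4-high cells, in which these chemokine genes make up at least 0.2% of UMIs, shared part of this pattern. Of 37 members tested, 10 were higher and none lower, against 4.28% and 3.20% of all 11141 genes and 7.48% in either direction. At an unadjusted p under 0.05, 16 of the 37 members differed, against 1862 of all 11141 genes. The pump supplied 4 of the 10 calls. The comparison uses the same reference cells as that of lipid-type cells, so the resemblance between both lists is not tested.

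Atp6v1a stood at 43.0, 29.9 and 42.5 CPM in reference cells and at 87.2, 72.8 and 135 in Ccl3/Ccl4-high cells (1.45 ± 0.28, 2.73-fold, adjusted p = 8.05e-06). Atp6v1d, a subunit of the rotor stalk of V1, stood at 81.7, 91.7 and 80.3 against 166, 159 and 151 (0.97 ± 0.21, adjusted p = 0.000141). Neu1, the sialidase, stood at 61.4, 67.5 and 57.7 against 158, 99.3 and 124 (1.09 ± 0.24, 2.12-fold, adjusted p = 0.000173). None of these 3 genes overlapped between the populations. Npc2 (0.53 ± 0.10) and Atp6v1c1 (0.83 ± 0.21) were higher too, while Cd68 was higher by 0.42 ± 0.10, against 1.17 in lipid-type cells. Lgmn (-0.15) and Laptm5 (-0.04) were not called.

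Gla was again higher (2.74 ± 0.80, adjusted p = 0.0132) but rests on 10 UMIs in 6 of 100 cells, and the 4 UMIs of run 1 came from 1 cell. Its adjusted p was 0.308, 0.122 and 0.196 without runs 1, 2 and 3. Atp6v1a and Neu1 kept their calls in all 11 alternatives run. The calls of Lamp1 (adjusted p = 0.0986, 0.0508 and 0.145 without runs 1, 2 and 3), Psap (0.0898 and 0.330 without runs 2 and 3), Atp6v0d1 (0.169 and 0.422 without runs 2 and 3), Cd68 (0.168 without run 3) and Atp6v1c1 (0.119 without run 3) did not survive the loss of a run. Immediate early transcripts, which respond to tissue handling as well as to activation, moved with this population: Fos, Egr1, Ier2, Jun, Atf3 and Nr4a1 summed to 1973, 2448 and 3329 CPM against 125, 230 and 1611 in reference cells, and their part in the result was not tested. Lipid-type markers moved with it too, at 491, 285 and 399 CPM against 38.6 to 48.5 in reference cells, while microglial markers stood at 8755, 11342 and 9458, below the reference cells of each run, and their part was likewise not tested.

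Of the 66 further lysosomal genes, 63 were tested in Ccl3/Ccl4-high cells, 12 were higher and none lower, against 4.28% and 3.2% of all 11141 genes. Cd63 was higher by 1.71 ± 0.10, the chloride-proton exchanger Clcn7 by 1.18 ± 0.40, Ctsb by 1.12 ± 0.08 and Rragc, a Rag GTPase of amino acid sensing, by 0.86 ± 0.20.

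Interferon-responsive-like cells, marked by genes such as Ifit1, Isg15 and Irf7, had Grn as the 1 member called (971, 1456 and 882 CPM in reference against 1124, 1751 and 1237, log2 difference 0.28 ± 0.08, adjusted p = 0.0253), against 2.14% of all 11229 genes called in either direction, 1.80% higher and 0.338% lower. Its call was lost without run 1 (adjusted p = 0.477) and without run 3 (0.399). At an unadjusted p under 0.05, 5 of the 37 members tested differed, against 981 of all 11229 genes. The median member differed by -0.01. Of the 62 further lysosomal genes tested, only Atp6v0a2 was called, higher at 187 ± 12.3 against 123 ± 9.05 CPM. Microglial markers summed to 11774, 15476 and 12267 CPM in interferon-responsive-like cells, below the reference cells of each run. Border macrophage markers stood at 434, 0 and 5.55 against 30.2, 5.54 and 7.76 in reference cells, with all 7 detected in run 1. The part of these in the result was not tested.

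Cycling-like cells, with at least 3 of 8 mitotic genes such as Mki67 and Top2a, carried less of several members. No member was higher and 8 were lower, against 8.03% of all 11290 genes called lower, 9.22% higher and 17.3% in either direction. The median member had a log2 difference of -0.38, against -0.17 over all genes. With library totals in place of TMM factors the median of all genes moved by 0.14, and 5 members were called. All genes were then called 1248 higher and 617 lower in place of 1041 and 907. Microglial markers summed to 9742, 12794 and 10975 CPM in cycling-like cells, below the reference cells of each run. Border macrophage markers stood at 267, 0 and 29.5 against 30.2, 5.54 and 7.76. Cycling-like cells were deeper, with medians of 7437, 6582 and 6234 UMIs against 4395, 3426 and 3681. The part of these in the result was not tested.

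Asah1, the acid ceramidase, was the 1 member whose call held in all 11 alternatives run. It stood at 478, 533 and 562 CPM in reference cells and at 292, 268 and 315 in cycling-like cells, without overlap (-0.98 ± 0.18, adjusted p = 1.60e-06). Neu1 stood at 61.4, 67.5 and 57.7 against 24.9, 36.5 and 19.7, from 12 UMIs in cycling-like cells (-1.39 ± 0.39, adjusted p = 0.00327). Lipa, the acid lipase that frees cholesterol from its esters, stood at 116, 141 and 110 against 78.3, 97.4 and 39.3 (-0.87 ± 0.26, adjusted p = 0.00737). Atp6v0b, a proteolipid of the V0 ring, stood at 952, 1036 and 919 against 659, 779 and 649 (-0.66 ± 0.16, adjusted p = 0.000698). Tmem106b, Man2b1, Npc2 and Hexa were lower by -0.90, -0.52, -0.48 and -0.43 on the log2 scale. Tmem106b had 0 UMIs in run 2, where cycling-like cells numbered 12.

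Single runs decided most of these calls. Without run 1 the adjusted p was 0.108 for Neu1. Without run 2 it was 0.186 for Tmem106b, 0.136 for Man2b1, 0.175 for Npc2 and 0.178 for Hexa, and 4 members were called in all. Without run 3 it was 0.115, 0.153, 0.207 and 0.246 for the same genes, 0.109 for Lipa and 0.0726 for Atp6v0b, and 2 members were called. DESeq2 called Asah1 and Atp6v0b alone, with an adjusted p of 0.0958 for Neu1 and 0.117 for Lipa. Of the 62 further lysosomal genes tested, none was higher and 21 were lower, against 9.22% and 8.03% of all 11290 genes. Among the 21 were 7 of 9 cathepsins, Tfe3, a relative of Tfeb (-1.21 ± 0.25), Man2b2 (-1.09 ± 0.39), Atp6v0a2 (-1.09 ± 0.27) and Ctsf (-0.99 ± 0.21).

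MHC class II-high cells had at least 3 of H2-Aa, H2-Ab1, H2-Eb1 and Cd74 detected. Of 37 members tested, 2 were higher and 3 lower, against 7.68% of all 11393 genes called higher, 4.99% lower and 12.7% in either direction. The members were thus called at about the share of all genes. Npc2 and Gla were higher and Lgmn, Npc1 and Tmem106b were lower. None of these 5 calls held in all 3 fits that left out a run. Npc2 stood at 939, 1252 and 881 CPM against 642, 733 and 638 in reference cells (0.77 ± 0.20, adjusted p = 0.00140). Npc1 stood at 103, 22.1 and 83.7 against 144, 127 and 134 (-0.69 ± 0.21, adjusted p = 0.0127). Lgmn stood at 3143, 2796 and 1641 against 4225, 5983 and 4122 (-0.77 ± 0.26, adjusted p = 0.0265), and Tmem106b, a membrane protein linked to lysosome size and transport, at 49.0, 33.1 and 13.4 against 83.1, 55.2 and 72.2 (-0.98 ± 0.28, adjusted p = 0.00505). These 4 genes did not overlap between the populations.

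The MHC class II-high cells are mixed. Their microglial markers summed to 8483, 6600 and 4099 CPM and their border macrophage markers to 1189, 1108 and 519, with 7, 6 and 5 of 7 detected. Lipid-type markers stood at 385, 1009 and 1470 against 38.6 to 48.5 in reference cells, and interferon markers at 865, 1097 and 409 against 45.6 to 54.1. In run 3 monocyte markers stood at 553 and dendritic cell markers at 459, against 5.4 and 3.0 in reference cells. In run 1, 21.6% of them held both Xist and Y-linked UMIs, which a single cell does not normally express together, against 2.99% of reference cells. The part of all these in the results was not tested beyond leaving such cells out, which left every call but that of Gla. Gla (2.03 ± 0.74, 11 UMIs) lost its call without any run (adjusted p = 0.416, 0.205 and 0.180 without runs 1, 2 and 3). The adjusted p without run 2 was 0.609 for Lgmn, 0.247 for Npc2 and 0.488 for Npc1, and without run 3 it was 0.367 for Lgmn and 0.362 for Tmem106b. DESeq2 also ended the calls of Tmem106b (adjusted p = 0.179) and Npc1 (0.255). With library totals the median of all genes moved by -0.17 on the log2 scale, and all genes were called 706 higher and 1049 lower in place of 875 and 568.

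Of the 63 further lysosomal genes tested in MHC class II-high cells, 4 were higher and 5 lower, against 7.68% and 4.99% of all 11393 genes. Ctsc, which activates granule proteases, stood at 934 ± 380 against 442 ± 78.0 CPM (1.20 ± 0.19), and the ganglioside activator Gm2a was higher by 1.06 ± 0.18. The cathepsin Ctsf (-0.93 ± 0.20) and Tfe3 (-0.81 ± 0.21) were among those that were lower.

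Border macrophage-like cells differed from reference microglia in both directions. They carried less Lgmn, Laptm5, Scarb2 and Naglu and more Npc2, Neu1, Atp6v1a and 4 further members. Of 37 members tested, 7 were higher and 4 lower, against 8.62% of all 11284 genes called higher, 9.26% lower and 17.9% in either direction. With library totals in place of TMM factors, 4 members were higher (Neu1, Npc2, Atp6v1a and Atp6v1e1) and 7 lower, and all genes were called 860 higher and 1471 lower in place of 973 and 1045. That scaling moved the median of all genes by -0.16 on the log2 scale. The members took 1.37, 1.55 and 1.40% of UMIs in border macrophage-like cells, below the 1.71, 2.21 and 1.69% of reference cells in every run. Much of this lay in Lgmn, with a mean of 0.201% against 0.478%. The other 12 hydrolases took 0.315% against 0.334%, and the V-ATPase genes 0.233% against 0.226%. The median member had a log2 difference of 0.05, against -0.22 over all genes.

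Other marker classes moved with the border macrophage-like cells. MHC class II markers summed to 17520, 26018 and 11792 CPM, against 36.4 to 42.9 in reference cells and 17073, 41695 and 33464 in MHC class II-high cells. Interferon markers summed to 610, 1215 and 1091 against 45.6 to 54.1. Npc2 was called higher and Lgmn lower both here and in MHC class II-high cells, against the same reference cells. The part of these markers in the results was not tested.

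Lgmn stood at 2052, 2099 and 1878 CPM in border macrophage-like cells, less than any reference value (4225, 5983 and 4122), with a fitted difference of -1.07 ± 0.12 (2.10-fold lower, adjusted p = 9.26e-19). Laptm5 stood at 1026, 991 and 969 against 2016, 2353 and 2081 (-0.95 ± 0.13, 1.93-fold lower, adjusted p = 1.64e-12). Lgmn in T or NK cells stood at 1695, 2826 and 491, below the border macrophage-like value in runs 1 and 3 and above it in run 2. Scarb2, a membrane protein that also serves as a sorting receptor, stood at 105, 126 and 73.9 against 191, 191 and 177 (-0.78 ± 0.22, adjusted p = 0.00325). Naglu, an enzyme of heparan sulfate breakdown, stood at 31.6, 38.9 and 43.5 against 84.4, 133 and 74.8, from 20 UMIs (-1.09 ± 0.32, adjusted p = 0.00472). None of these 4 genes overlapped.

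Among the members that were higher, Atp6v1a stood at 121, 87.5 and 86.9 CPM against 43.0, 29.9 and 42.5 (1.48 ± 0.29, 2.79-fold, adjusted p = 3.70e-06). Neu1 stood at 116, 136 and 126 against 61.4, 67.5 and 57.7 (1.18 ± 0.24, 2.26-fold, adjusted p = 1.62e-05). Npc2 stood at 926, 1147 and 965 against 642, 733 and 638 (0.74 ± 0.13, adjusted p = 3.26e-07). All 3 lay above every reference value. The V1 genes Atp6v1e1, Atp6v1f and Atp6v1g1 were higher by 0.71, 0.55 and 0.43 and Lamp1 by 0.42, whereas Atp6v1c1 had a difference of -0.45 and was not called. Cd68 stood at 784, 709 and 878 against 734, 1012 and 662, which overlapped, and Grn at 847, 1244 and 1004 against 971, 1456 and 882, and neither was called.

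The calls of Lgmn, Neu1, Npc2 and Atp6v1a held in all 13 alternatives run, and Laptm5 lost its call only when cells with more microglial than macrophage marker UMIs were let in (adjusted p = 0.0911). That setting left 4 members called. Without run 1 the adjusted p was 0.0730 for Naglu, 0.0511 for Lamp1, 0.121 for Atp6v1e1, 0.159 for Atp6v1f and 0.0868 for Atp6v1g1. Without run 2 it was 0.0862 for Naglu and 0.118 for Atp6v1g1. Without run 3 it was 0.112 for Lamp1, 0.204 for Scarb2, 0.106 for Atp6v1f and 0.264 for Atp6v1g1. With DESeq2 it was 0.155 for Scarb2, 0.122 for Naglu, 0.0598 for Atp6v1f and 0.137 for Atp6v1g1, which left 7 members called.

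Of the 63 further lysosomal genes tested in border macrophage-like cells, 9 were higher and 10 lower, against 8.62% and 9.26% of all genes. The sorting receptor Sort1 (-2.41 ± 0.39), Atp6v0a2 (-2.17 ± 0.34), Ctsd (1640 ± 333 against 7800 ± 1548, -2.09 ± 0.12) and Ctsf (-1.81 ± 0.23) were among those that were lower. Galc, the galactocerebrosidase that degrades a myelin lipid, stood at 88.4 ± 29.5 against 19.7 ± 2.70 (2.36 ± 0.33), and Ctsc (2.13 ± 0.13), Sgsh (2.02 ± 0.58), Cd63 (1.52 ± 0.14) and Ctsb (1.33 ± 0.12) were higher. Cathepsins were 2 higher and 5 lower of 9 tested.

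**Figure D4:**
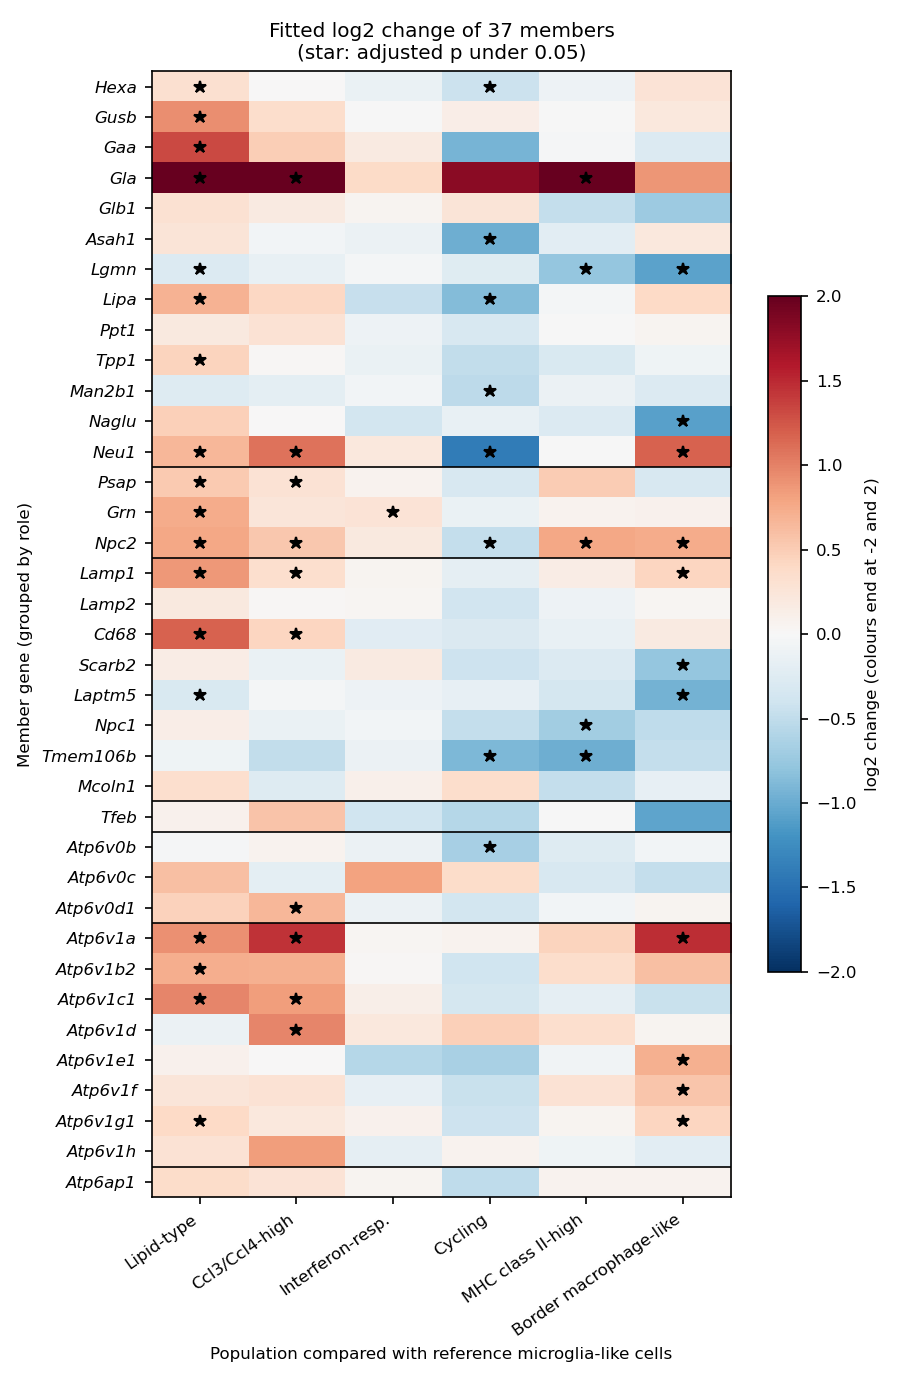
Fitted log2 difference (colour, cut off at -2 and 2) of the 37 members tested, grouped by role (rows), in 6 populations against reference microglia-like cells (columns), with a star at an adjusted p under 0.05. Lipid-type cells show 16 higher and 2 lower calls and cycling-like cells 8 lower calls, and all columns share the same reference cells.

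Border macrophage-like and lipid-type cells were also compared directly, which uses no reference cells. With fewer counts in both populations, 31 of 39 members and 2919 genes passed the filter. No member was higher and 11 were lower in border macrophage-like cells, against 14.8% of all genes called higher, 12.5% lower and 27.3% in either direction. Among the 11 were 4 of 7 membrane proteins and 2 of 3 cofactors. Library totals moved the median of all genes by -0.15, with all genes called 345 higher and 504 lower in place of 431 and 366.

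Cd68 stood at 784, 709 and 878 CPM in border macrophage-like cells and at 1469, 2289 and 1691 in lipid-type cells (-1.0 ± 0.17, 2.00-fold lower, adjusted p = 0.000143). Psap stood at 1052, 1409 and 1152 against 1870, 3377 and 2157 (-0.84 ± 0.15, adjusted p = 0.000261). Lgmn stood at 2052, 2099 and 1878 against 3605, 4992 and 3197 (-0.78 ± 0.15, adjusted p = 0.000412). These 3 calls held in all 10 alternatives run. Atp6v1c1 stood at 47.4, 48.6 and 69.5 against 159, 164 and 186 (-1.45 ± 0.29, 2.73-fold lower, adjusted p = 0.000782), Gaa at 36.8, 19.4 and 47.8 against 125, 193 and 85.3 (-1.58 ± 0.38, adjusted p = 0.00323), and Naglu at 31.6, 38.9 and 43.5 against 93.0, 204 and 132 (-1.63 ± 0.34, adjusted p = 0.00113). None of these 6 genes overlapped between the populations. With DESeq2 the adjusted p was 0.0658 for Atp6v1c1, 0.110 for Gaa and 0.0659 for Naglu, and 4 of the 11 members were called. Scarb2 (-0.82 ± 0.26) and Gusb (-0.75 ± 0.21) were lower as well, and so were Grn, Laptm5 and Lamp1, by -0.66, -0.62 and -0.43.

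Without runs 1, 2 and 3 the adjusted p of Scarb2 was 0.0803, 0.0830 and 0.0860. Lamp1 had 0.0843 without run 1 and 0.384 without run 3, and Gusb 0.0530 without run 2 and 0.120 without run 3. Atp6v1a (0.56), Atp6v1e1 (0.66) and Neu1 (0.51) had fitted values above 0 but were not called. Of 39 further lysosomal genes tested, 2 were higher in border macrophage-like cells and 13 lower, against 14.8% and 12.5% of all 2919 genes. Ctsc (1.36 ± 0.16) and Galc (1.38 ± 0.41) were the 2 higher genes. Among the 13 lower ones were Ctsd (-3.04 ± 0.19), Ctsl (-2.12 ± 0.16) and Ctsz (-1.94 ± 0.17).

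Reference cells were last compared by their sex-linked transcripts. Those with a Y-linked and no Xist UMI numbered 5126, and those with at least 2 Xist and no Y-linked UMI numbered 8448. The members took 1.85% ± 0.277 of UMIs in the former and 1.88% ± 0.302 in the latter (SD, n = 3). None of 37 members was called by edgeR or by DESeq2, against 0.514% of 11284 genes. Unadjusted p-values of edgeR were under 0.05 for 2 members, against 1108 of the 11284 genes. Fitted differences ran from -0.11 for Npc1 to 0.32 for the X-linked Gla.

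Several members were too rare to follow. Gpnmb, a glycoprotein of phagocytes in lipid-laden and aged tissue, had 3 UMIs in all, in 2 lipid-type cells of runs 1 and 3, and 0 of 18902 reference cells held one, which allows a share of up to 0.0159% of cells with a Gpnmb UMI at this depth, for counting error only, and sets no limit on the share of cells that express the gene. Atp6v0d2, the osteoclast isoform of a V0 subunit, had 1 UMI in all, in an MHC class II-high cell of run 2. Atp6v0c, the main proteolipid of the V0 ring, had 233 UMIs in 227 cells. Processed copies of this gene exist in the genome and how shared reads were counted is not stated in the sources used here, so its low level is uncertain. The regulator Tfeb stood at 24.4, 29.5 and 27.5 CPM in reference cells and at 29.2, 34.0 and 15.5 in lipid-type cells, and Mcoln1, the lysosomal calcium channel, at 21.6, 19.7 and 22.4 against 23.9, 28.3 and 31.0. Neither was called in any comparison in which it was tested. Glb1, Ppt1, Lamp2, Atp6v0c, Atp6v1h and Atp6ap1 were likewise called in no comparison.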

How the data were processed

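The deposited files are raw UMI counts per gene and barcode, with no normalization, made with Cell Ranger against mm10 and followed by Seurat 4.0, per the submitters' processing notes. Per the file headers, the counting software was version 3.0.2 for run 1 and 3.1.0 for runs 2 and 3. Read handling, strand and multi-mapping are not given in the sources used here. The total was 34140879, 24717907 and 24225612 UMIs in runs 1, 2 and 3.

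Cells were kept with at least 1000 UMIs, 500 genes and at most 10% mitochondrial UMIs. Doublets were not removed by a caller. Populations were set by detected markers, without clustering, and their names were rebuilt from marker genes. Ccl3/Ccl4-high cells are a range rather than a type: 11, 22 and 65 reference cells of runs 1, 2 and 3 lay within 2-fold below the cut of 0.2% of UMIs and 8, 6 and 19 of the high cells within 2-fold above it. The members, the lists of lysosomal and marker genes and the tests were chosen with earlier results of these data known. Of the lipid-type markers listed, 6 of 7 have a row in the files.

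The UMIs of each population were added up within a run, and these sums entered edgeR 4.0.16 (glmQLFit and glmQLFTest, TMM, filterByExpr) in R 4.3.3, with the run as a block and the marker genes of both populations left out. P-values were adjusted by Benjamini and Hochberg's method over every gene in a fit. A difference was called at an adjusted p under 0.05. DESeq2 1.42.0 was an alternative. Levels are CPM, computed here from the deposited counts with the total of each sum. They were not scaled by gene length and are not compared between genes. Fits were made only with at least 10 cells per run in both populations. The populations of a run share a library, which pairs them. How they deviated together from their means was checked by correlations over genes, which are not independent. These were 0.13 to 0.31 in the comparisons between populations and 0.70 to 0.78 between reference cells split by sex-linked transcripts. All genes shared 1 estimate of spread in the 6 comparisons with all reference cells. Full values went to the called members that moved the same way in the 3 runs, at most 8 per direction in order of size, and to at most 5 further lysosomal genes per direction with at least 20 CPM, some of which are not reported here. Shares thinned to 1000 UMIs per cell and the limit of 3 counts behind a count of 0 cover counting error only.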

Additional observations from a re-analysis of the deposited data

How the results depend on the processing

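No member reversed its direction in any alternative run: over the called members and their alternatives, 510 values kept the call and 191 kept the direction but lost it. Of 88 counts of called members, 61 stayed within 1.5 times the value reported. Among the 88 are those by sex-linked transcripts, where the count reported was 0 and another 0 was taken as unchanged. Without the replicate block, that is without pairing the populations of a run, the counts were 7 in place of 11 for border macrophage-like, 7 in place of 18 for lipid-type, 5 in place of 10 for Ccl3/Ccl4-high, 0 in place of 1 for interferon-responsive-like, 1 in place of 5 for MHC class II-high and 4 in place of 8 for cycling-like cells. Leaving out each run in turn gave 6 to 10 for border macrophage-like, 12 to 14 for lipid-type, 5 to 8 for Ccl3/Ccl4-high, 0 to 1 for interferon-responsive-like, 1 to 4 for MHC class II-high and 2 to 11 for cycling-like cells, 8 to 9 for border macrophage-like against lipid-type cells, and 0 throughout by sex-linked transcripts. DESeq2 gave 7 for border macrophage-like and 2 for cycling-like cells, and 4 for border macrophage-like against lipid-type cells. Library totals gave 5 for cycling-like cells. The stricter cell filter gave 0 for interferon-responsive-like, 15 for cycling-like and 7 for border macrophage-like against lipid-type cells. Asking for 1 more marker gave 0 for interferon-responsive-like cells. Asking for 1 marker fewer, chosen after seeing the data, gave 3 for MHC class II-high and 13 for cycling-like cells. Classing cells at 1000 UMIs gave 10 for MHC class II-high cells, and border macrophage-like cells without the rule on marker balance gave 4. The counts in this paragraph stand without the number of all genes called in the same setting. They therefore do not show whether the members changed more than other genes. The cause was not tested. Under 10 cells in a run were left, and no fit was made, for lipid-type cells with 1 more marker or classed at 1000 UMIs, for both of these settings of border macrophage-like against lipid-type cells, and for interferon-responsive-like and cycling-like cells classed at 1000 UMIs. Depth limited Gla, Tfeb and Mcoln1, for which each smaller population compared held between 3 and 22 UMIs.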

Other observations

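A population marked by immediate early genes (Fos, Egr1, Ier2, Jun, Atf3 and Nr4a1 at 1% of UMIs or more) held 23 cells, all of run 3. Its members took 1.68% of UMIs, against 1.69% in reference cells of that run, and no test was made with 1 run. Reference cells of run 3 also carried more of these 6 transcripts, 1611 CPM against 125 and 230 in runs 1 and 2.

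Cells with astrocyte markers numbered 108, 31 and 9 in runs 1, 2 and 3. The median cell among them gave the members 1.52, 2.01 and 1.63% of its UMIs, near the 1.69, 2.19 and 1.67% of the median reference cell in each run. In cells with choroid plexus markers, 23, 24 and 3 per run, the median was 1.02, 0.748 and 0.494%. These values are descriptions, and how many such droplets hold a microglial cell as well was not tested.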
